A study of Homo sapiens with 6 samples.

Results

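Genes of cholesterol synthesis, uptake and sterol sensing were examined after knockdown of MRPL35 in A549, an established line of human lung adenocarcinoma cells. The list held 30 genes chosen by function, and 28 of them could be read, out of 18244 genes measured. A gene was read where at least 1 probe set of the array carried its symbol and no other, and its value came from the probe set with the highest mean over the arrays. FDFT1 and NR1H2 had no such probe set and were not analysed here. Group KD received a lentiviral hairpin against MRPL35, a protein of the mitochondrial ribosome's large subunit, and group NC a lentiviral control hairpin, with 3 samples in each. All samples were grown in medium with 10% serum. The labels name no clone, time point or separate cultures, so each p-value covers the spread among these samples alone, and that spread may be technical.

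Cells make cholesterol from acetyl-CoA through mevalonate, squalene and lanosterol. When sterols in the endoplasmic reticulum are scarce, SCAP carries the transcription factors SREBP1 and SREBP2 to the Golgi, where proteases release them to switch on synthesis and uptake genes; when sterols are plentiful, INSIG proteins hold SCAP back. Oxysterols in turn activate the LXR nuclear receptors, which raise cholesterol export and, through the ubiquitin ligase MYLIP, lower uptake of low-density lipoprotein.

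The targeted gene was lower in KD: MRPL35 read 6.49, 6.44 and 6.56 in KD against 8.16, 8.05 and 8.36 in NC (log2 probe-set values, here and below in the order of replicates 1, 2 and 3). The change was -1.69 (standard error, SE, 0.096), a 3.23-fold fall (limma, adjusted p = 3.77e-06). Other probe sets of MRPL35 changed by -1.37, -1.98 and -0.42, all called lower. With the mean of its probe sets the change was -1.37. Arrays correlated at 0.994 or more within groups and at 0.976 to 0.980 between them. The epithelial marker list had means per array of 10.91 to 10.97 in KD and 10.30 to 10.42 in NC. Of its 5 genes 4 were called higher in KD, against 17.6% of all genes, and E-cadherin (CDH1) rose most, by 1.31. EPCAM read lowest in this list, at 5.69 to 6.26, with overlapping groups and no call. Means of the leukocyte, fibroblast and endothelial lists lay between 3.96 and 5.17 in KD and between 3.99 and 5.17 in NC. In the leukocyte list PTPRC read lowest, at 2.33 to 2.62, and CD68 highest, at 6.82 to 7.08, while CD14, a monocyte marker, was called higher (0.60). The part of these markers in the results was not tested. All values in the text are log2 values of probe sets, and all changes are KD minus NC.

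Because most members moved together, the sequence just upstream of the transcript start is shown for 5 of them: the 3 that rose at least 2-fold (STARD4, INSIG1 and HMGCS1), the only called fall (MSMO1), and SREBF2, which encodes SREBP2. RefSeq promoter windows of 250 bases before to 50 after the start (GRCh38.p14) were found for 27 of the 30 genes, 36 windows in all; ACAT2, FDFT1 and SQLE had no entry. Textbook motifs were searched on both strands: the sterol regulatory element (SRE) bound by SREBPs as TCACNCCAC, the E-box CACGTG, and the CCAAT box CCAAT bound by NF-Y, a factor that acts beside SREBPs. Each line gives the last 200 bases before the start, 5′ to 3′ in the direction of the gene, with motif matches in capitals (ATTGG is a CCAAT box on the other strand). The stretches lie at chr5:111512536-111512735 (minus strand) for STARD4, chr7:155297678-155297877 (plus) for INSIG1, chr5:43313413-43313612 (minus) for HMGCS1, chr4:165327469-165327668 (plus) for MSMO1 and chr22:41832905-41833104 (plus) for SREBF2. For HMGCS1, which has 2 windows, the one with motif matches is shown.
STARD4: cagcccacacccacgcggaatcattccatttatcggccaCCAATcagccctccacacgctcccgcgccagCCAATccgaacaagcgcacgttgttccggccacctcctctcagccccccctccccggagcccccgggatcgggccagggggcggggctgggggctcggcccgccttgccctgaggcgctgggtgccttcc
INSIG1: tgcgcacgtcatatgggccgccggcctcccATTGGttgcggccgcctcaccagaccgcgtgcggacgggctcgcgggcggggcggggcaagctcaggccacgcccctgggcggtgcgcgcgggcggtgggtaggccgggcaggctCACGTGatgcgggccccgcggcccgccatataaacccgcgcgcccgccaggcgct
HMGCS1: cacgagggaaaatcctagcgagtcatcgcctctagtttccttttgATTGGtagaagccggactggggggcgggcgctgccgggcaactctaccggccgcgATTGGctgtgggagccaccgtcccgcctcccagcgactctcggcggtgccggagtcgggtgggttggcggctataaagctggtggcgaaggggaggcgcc
MSMO1: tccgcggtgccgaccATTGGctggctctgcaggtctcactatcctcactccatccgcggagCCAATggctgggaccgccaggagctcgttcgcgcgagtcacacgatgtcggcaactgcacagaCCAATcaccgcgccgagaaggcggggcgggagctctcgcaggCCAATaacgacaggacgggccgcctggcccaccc
SREBF2: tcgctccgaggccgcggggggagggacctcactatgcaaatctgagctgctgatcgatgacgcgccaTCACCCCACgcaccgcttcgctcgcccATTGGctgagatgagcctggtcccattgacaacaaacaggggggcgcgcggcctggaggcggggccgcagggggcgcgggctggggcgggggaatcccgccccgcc

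A CCAAT box stood in the windows of 20 of 27 members (74.1%), against 42.1% of 15843 protein-coding genes; by window the shares were 61.1% of the members' and 34.6% of all 35116. It was found for 12 of the 15 members with a window that rose, for 7 of the 10 that were not called, and 4 times in the window of MSMO1, which fell. In SREBF2 the only SRE match among the members, TCACCCCAC, began at position -133, counting back from the start; 1.13% of all windows hold this motif. E-boxes were found for 4 members, LSS, SC5D, INSIG1 and SCAP (14.8%, against 10.9% of protein-coding genes). Matches of different motifs did not overlap. A match is a description of the letters and not a bound site, and these short windows say nothing about sites farther away. Only exact matches to TCACNCCAC were counted, so an SRE with other letters would have been missed.

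**Figure D1:**
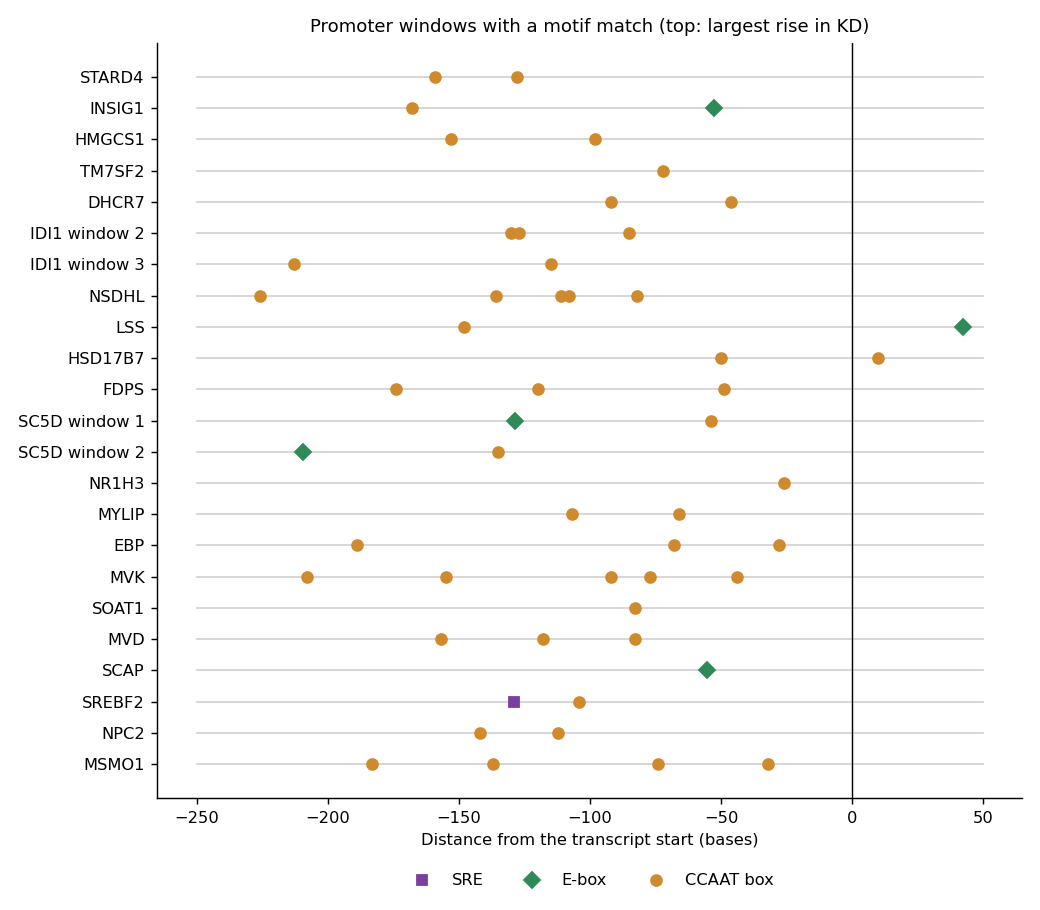
Positions of SRE, E-box and CCAAT matches in the promoter windows of members with at least 1 match, ordered from the largest rise in KD (top) to the largest fall; the horizontal axis is the distance from the transcript start in bases, and grey lines mark the window. CCAAT boxes stand in the windows of STARD4 at the top and of MSMO1 at the bottom, and the single SRE match lies in the window of SREBF2.

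Most of the cholesterol genes stood higher in the knockdown cells. Of 28 members 17 rose and 1 fell (MSMO1), while 10 did not pass (limma, adjusted p under 0.05 over all genes). Among all genes tested 17.6% were called higher and 15.9% lower; among the 9362 genes at least as bright as the dimmest member these shares were 27.6% and 25.2%. The median change of the members was 0.44 (1.35-fold), against -0.018 for all genes. At least 2-fold rises were called for 3 members, STARD4, INSIG1 and HMGCS1, and for 2.27% of all genes. In 20 members all KD arrays lay above all NC arrays, as for 23.2% of all genes, and in MSMO1 and NPC2 all lay below, as for 21.5% of all genes. Averaged over the 28 members, the KD arrays stood 0.44 to 0.45 above the NC mean, and the NC arrays between -0.076 (replicate 2) and 0.063 (replicate 3). NC replicate 2 was the lowest NC array for 17 members and NC replicate 3 the highest for 20. Without NC replicate 2 the members that rose numbered 16.

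**Figure D2:**
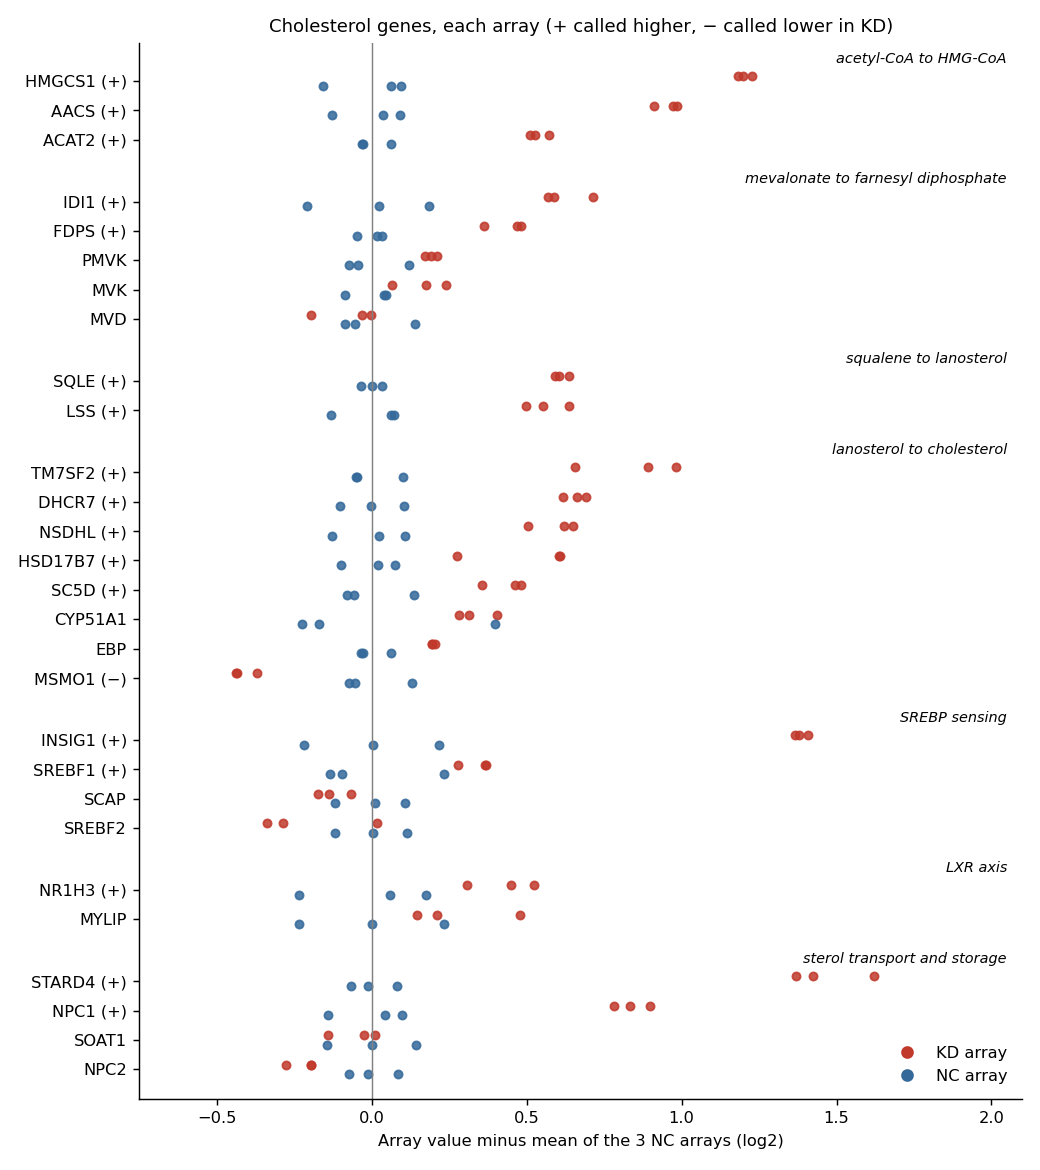
Value of each member in each array minus the mean of the 3 NC arrays (log2, horizontal axis), with KD arrays in red and NC arrays in blue and genes grouped by role; (+) marks genes called higher and (−) the gene called lower. The KD points of STARD4, INSIG1 and HMGCS1 lie farthest to the right, and those of MSMO1 lie left of its NC points.

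The first steps, which build HMG-CoA, rose in all 3 genes measured. HMGCS1, the synthase that makes HMG-CoA in the cytosol, read 9.47, 9.49 and 9.52 in KD and 8.35, 8.14 and 8.39 in NC. It rose by 1.20 (SE 0.089), or 2.30-fold, with adjusted p = 1.58e-05, and the groups were separated by far more than the spread within either. AACS, which activates acetoacetate for lipid synthesis, read 9.21, 9.22 and 9.15 in KD and 8.27, 8.11 and 8.33 in NC. It rose by 0.96 (SE 0.085), or 1.94-fold. ACAT2, the cytosolic thiolase that joins 2 acetyl-CoA units, read 10.62, 10.56 and 10.58 in KD and 10.02, 10.02 and 10.11 in NC, and rose by 0.54 (SE 0.075).

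Of the 5 genes from mevalonate to farnesyl diphosphate, the kinases and the decarboxylase did not pass, whereas the genes after them rose. MVK, mevalonate kinase, changed by 0.16 (95% interval -0.032 to 0.35), PMVK, phosphomevalonate kinase, by 0.19 (0.0042 to 0.38, adjusted p = 0.115) and MVD, the decarboxylase, by -0.076 (-0.29 to 0.14). In MVK and PMVK all KD arrays lay above all NC arrays, by little; in MVD the groups overlapped. IDI1, the isomerase that supplies the reactive isoprene unit, read 9.32, 9.18 and 9.19 in KD and 8.79, 8.40 and 8.63 in NC. It rose by 0.62 (SE 0.11, adjusted p = 0.00197). FDPS, farnesyl diphosphate synthase, read 10.56, 10.68 and 10.67 in KD and 10.22, 10.15 and 10.23 in NC and rose by 0.44 (SE 0.077).

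Both measured genes between squalene and lanosterol rose by similar amounts. SQLE, squalene epoxidase, a control point of the pathway, read 10.20, 10.17 and 10.16 in KD and 9.57, 9.53 and 9.60 in NC. Its rise of 0.61 (SE 0.073, adjusted p = 0.000212) appeared in all 4 of its probe sets, with changes of 0.49 to 0.75. LSS, lanosterol synthase, read 8.40, 8.54 and 8.46 in KD and 7.77, 7.96 and 7.97 in NC and rose by 0.56 (SE 0.088).

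The 8 genes that turn lanosterol into cholesterol were less uniform, with 5 higher, 1 lower and 2 not called. TM7SF2, a sterol reductase, rose by 0.84 (SE 0.10; 8.52, 8.76 and 8.85 in KD against 7.81, 7.81 and 7.96 in NC). DHCR7, which makes cholesterol in the last step, rose by 0.66 (SE 0.083; 9.90, 9.86 and 9.93 against 9.24, 9.14 and 9.35). NSDHL, a dehydrogenase of the demethylation complex, rose by 0.59 (SE 0.090; 9.86, 9.74 and 9.89 against 9.11, 9.34 and 9.26). In these 3 genes every KD array exceeded every NC array by more than the spread within NC. HSD17B7, the ketoreductase of the same complex, rose by 0.50 (SE 0.11) and SC5D, a desaturase, by 0.43 (SE 0.089), or by 0.70 with its suffixed probe set left out. EBP, the isomerase, changed by 0.20 (95% interval 0.029 to 0.37, adjusted p = 0.0731), and all its KD arrays lay above all NC arrays.

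MSMO1, the oxygenase that starts removal of the methyl groups from the sterol ring, moved against the rest. It read 9.44, 9.51 and 9.44 in KD and 10.01, 9.80 and 9.82 in NC. It fell by 0.41 on the log2 scale (SE 0.085, adjusted p = 0.00461), or 1.33-fold. Of its other probe sets, 2 fell as well, by 0.46 and 0.47, and the dimmest changed by 0.079 without passing. The call held in all 14 alternatives that refitted or rescaled the data, with adjusted p between 0.000148 and 0.0242, but MSMO1 did not reach the 1.5-fold threshold that was also tried.

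CYP51A1, the demethylase that acts on lanosterol, was split by 1 array. It read 9.55, 9.64 and 9.52 in KD and 9.63, 9.07 and 9.01 in NC, so that NC replicate 1 lay among the KD values. The change of 0.33 (SE 0.15) did not pass (adjusted p = 0.144); without NC replicate 1 it was 0.53 (adjusted p = 0.00345). The second probe set of CYP51A1 rose by 0.63 (adjusted p = 0.00201 over all probe sets), with all KD arrays above all NC arrays. The adjusted p of this gene ranged from 0.00171 to 0.376 over the alternatives.

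**Figure D3:**
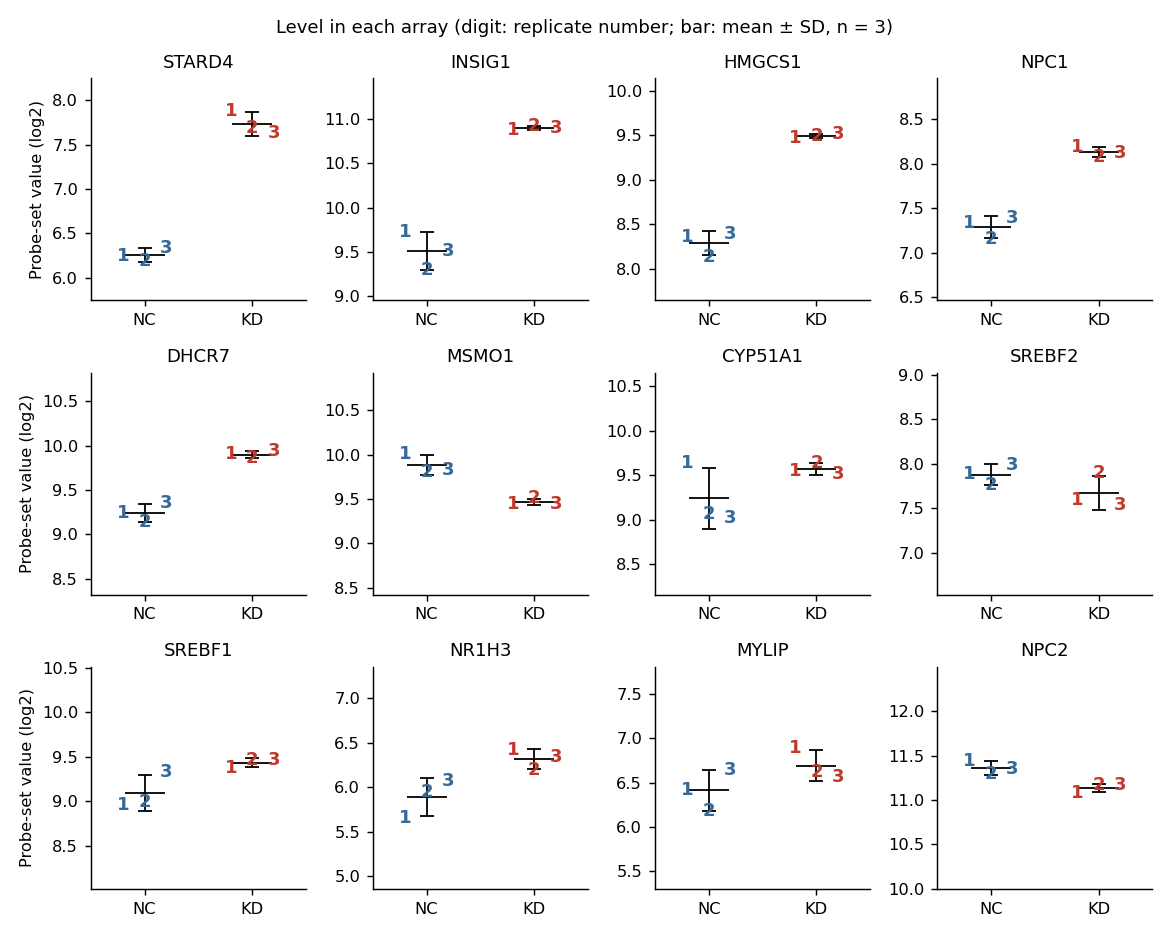
Log2 probe-set value of 12 members in each array, with the replicate number as the symbol (blue NC, red KD) and a bar for the mean ± SD of 3 arrays; each panel spans the same number of log2 units. STARD4, INSIG1, HMGCS1, NPC1 and DHCR7 have separate groups with KD higher, MSMO1 and NPC2 have KD lower, and in CYP51A1 NC replicate 1 lies at the KD level.

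Among the sterol sensing genes, INSIG1 rose strongly while SCAP and SREBF2 did not pass. INSIG1, which retains SCAP in the endoplasmic reticulum and is itself an SREBP target, read 10.88, 10.92 and 10.89 in KD and 9.73, 9.29 and 9.52 in NC. It rose by 1.38 (SE 0.11), or 2.61-fold (adjusted p = 2.37e-05), which placed it at rank 140 of 18244 from the largest rise. The SD was 0.217 in NC and 0.0208 in KD, and its other 2 probe sets rose by 1.35 and 1.10. SREBF2 read 7.59, 7.90 and 7.54 in KD and 7.88, 7.76 and 7.99 in NC, with overlapping groups and a change of -0.20 (95% interval -0.46 to 0.054). The SREBF2 change was -0.31 without KD replicate 2 (adjusted p = 0.0628), -0.13 without KD replicate 3 and -0.089 with the mean of its probe sets. SCAP overlapped as well, with a change of -0.13 (-0.32 to 0.069). SREBF1, the gene of SREBP1, read 9.37, 9.46 and 9.46 in KD and between 8.96 and 9.33 in NC and was called higher by 0.34 (SE 0.11, adjusted p = 0.0401). This call was weak. It was lost with any of KD replicates 1 to 3 or NC replicates 1 or 2 left out, with adjusted p from 0.0719 to 0.135. It was also lost with median centring (0.315, adjusted p = 0.0538). Of its other 2 probe sets, 1 changed by -0.18 (adjusted p = 0.330 over all probe sets) and 1 rose by 0.37 (adjusted p = 0.00933). With the mean of its probe sets the change was 0.17 (adjusted p = 0.131).

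The transport and storage genes held the largest rise of all members. STARD4, a soluble carrier of cholesterol between membranes, read 7.88, 7.69 and 7.63 in KD and 6.25, 6.19 and 6.34 in NC. It rose by 1.47 (SE 0.093), or 2.77-fold (adjusted p = 6.74e-06), at rank 120 of 18244. All 5 of its probe sets rose, by 1.42 to 1.80. NPC1, the membrane protein that lets cholesterol out of lysosomes, read 8.19, 8.07 and 8.13 in KD and 7.34, 7.15 and 7.39 in NC and rose by 0.84 (SE 0.089), or 1.79-fold.

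The partner of NPC1 in the lysosome leaned the other way but was not called. NPC2, a soluble protein that hands cholesterol to NPC1, read 11.08, 11.16 and 11.16 in KD and 11.44, 11.29 and 11.35 in NC. All KD arrays lay below all NC arrays, and the change of -0.22 (SE 0.079) missed the threshold (adjusted p = 0.0602). It passed without NC replicate 2 (-0.26, adjusted p = 0.0285), which brings the members that fell to 2, and its second probe set fell by 0.35 (adjusted p = 0.00740 over all probe sets). The dimmer probe sets of NPC2 changed by 0.067 and -0.21, neither called. Over the alternatives its adjusted p ranged from 0.00288 to 0.186. SOAT1, which esterifies cholesterol for storage, had overlapping groups and a change of -0.052 (95% interval -0.27 to 0.17). Its direction was not settled: the change was 0.020 without NC replicate 1 and 0.082 with the mean of its probe sets, and none of these passed.

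On the LXR side, NR1H3, the gene of LXR alpha, was called higher and MYLIP was not. NR1H3 read 6.42, 6.20 and 6.34 in KD and 5.66, 5.95 and 6.07 in NC, which is a rise of 0.43 (SE 0.12, adjusted p = 0.0204). It rests on a single probe set, and the call was lost without KD replicate 1 (adjusted p = 0.0774), KD replicate 3 (0.0687) or NC replicate 1 (0.0574). MYLIP read 6.89, 6.62 and 6.56 in KD and 6.41, 6.18 and 6.65 in NC, with overlapping groups and a change of 0.28 (95% interval -0.027 to 0.59). The median change was 0.35 for these 2 genes and 0.52 for the 18 measured synthesis enzymes, of which 12 rose and 1 fell. The LXR median minus the synthesis median was -0.16, beside an SD of 0.125 for the same quantity between arrays of a group. This difference was not tested. It was -0.31 with probe sets of the x or s suffix left out, where 15 enzymes were measured, and -0.096 without NC replicate 3.

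**Figure D4:**
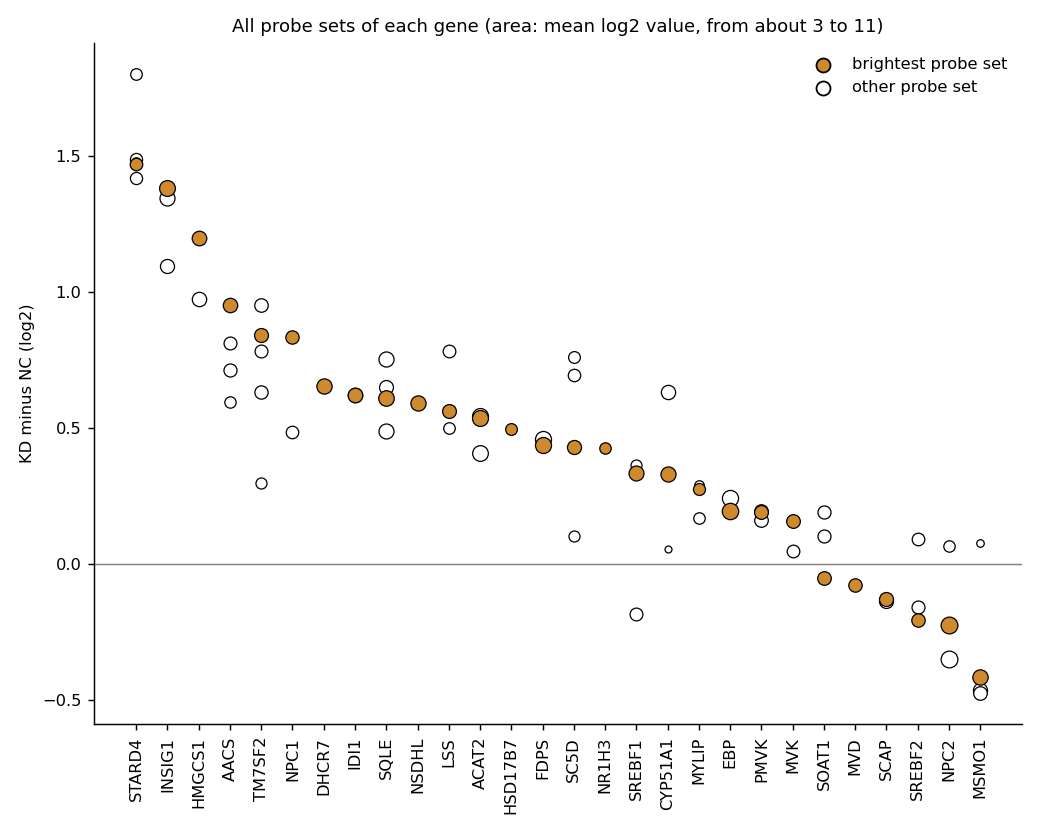
Change (KD minus NC, log2) of all 76 probe sets of the 28 members, with genes ordered by the change of their brightest probe set (filled) and symbol area growing with the mean value. Of the 48 other probe sets 42 have the sign of the brightest; the exceptions belong to MSMO1, SREBF1, SREBF2, NPC2 and SOAT1.

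Over all members, 44 of 76 probe sets were called higher and 4 lower, against 16.7% and 14.3% of all 45278 single-symbol probe sets. A single probe set stood for 5 members. The brightest probe set of 13 members carries an x or s suffix, which marks probes that can hybridise to several transcripts. Of the 48 probe sets that were not the brightest, 42 changed in the same direction as the brightest, and the 6 that did not were all uncalled. Probe sets differed in size of change even where they shared a sign: those of SC5D ranged from 0.11 to 0.76 and those of TM7SF2 from 0.30 to 0.95.

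Other genes of sterol metabolism were counted from lists drawn up beside the members. The shares to set beside each count are 17.6% higher and 15.9% lower over all genes. Among genes at least as bright as the dimmest member they are 27.6% and 25.2%. In lipoprotein uptake 5 of 6 measured genes were higher, with a median of 0.52. LRP1, a large endocytic lipoprotein receptor, rose by 0.95 (SE 0.11; 7.70, 7.55 and 7.94 in KD against 6.75, 6.75 and 6.84 in NC), and by 0.56 with the mean of its probe sets. DAB2, a clathrin adaptor for such receptors, rose by 0.68 and LRPAP1, their chaperone, by 0.55. Fatty acid genes known as SREBP1 targets had 8 of 14 higher and 2 lower, with a median of 0.47. ELOVL6, an elongase, rose by 1.79 (SE 0.092; 8.39, 8.17 and 8.17 against 6.47, 6.36 and 6.52), more than any cholesterol gene listed. ACLY, which makes cytosolic acetyl-CoA for both pathways, fell by 0.81 (SE 0.075), and the elongase ELOVL5 fell by 0.79. With suffixed probe sets left out ACLY was not measured, and the 1 fall in this list was that of ELOVL5 (-0.83).

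The isoprenoid branch, which draws on farnesyl diphosphate for other products, was mostly lower, with 5 of 9 genes lower, 1 higher and a median of -0.43. PDSS1, which builds the coenzyme Q side chain, fell by 0.74 (SE 0.090) and FNTB, a subunit of protein farnesyltransferase, by 0.66. With the mean of its probe sets PDSS1 changed by -0.39 (adjusted p = 0.0122). GGPS1, which makes geranylgeranyl diphosphate, rose by 0.69 (SE 0.089; 9.41, 9.39 and 9.40 in KD against 8.83, 8.56 and 8.75 in NC). Of 4 other genes of cholesterol synthesis, ERG28, a scaffold of the demethylation complex, fell by 0.96, and LBR, a lamina protein with sterol reductase activity, by 0.45. The fall of ERG28 rests on a probe set with a suffix: with such probe sets left out it was -0.062 (adjusted p = 0.717), and with the mean of its probe sets -0.37 (adjusted p = 0.00289). ACAT1, the mitochondrial thiolase, rose by 0.44, a call that was lost with the mean of its probe sets (0.17, adjusted p = 0.102).

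In the list drawn up for SREBP processing and HMG-CoA reductase turnover, 3 of 10 measured genes rose and 4 fell. INSIG2, the second INSIG gene, rose by 0.74 (SE 0.081; 7.02, 7.17 and 7.16 against 6.35, 6.35 and 6.44). TMEM97, a membrane protein that binds NPC1 and was counted in this list, fell by 0.82, and PAQR3, a Golgi anchor for SCAP, by 0.96. With the mean of each gene's probe sets PAQR3 changed by -0.48, still called, and the rises in this list numbered 1. Sterol transport and ester genes had 5 of 17 higher and 2 lower, beside 27.6% and 25.2% of genes at least as bright as the dimmest member. Their rises numbered 3 without KD replicate 1 or 2, 2 without KD replicate 3 and 8 with the mean of probe sets, and the falls numbered 1 with KD replicate 2 or 3 or NC replicate 3 left out. LIPA, the lysosomal acid lipase that frees cholesterol from its esters, rose by 1.09 (SE 0.078), or 2.13-fold. OSBPL2, of the oxysterol-binding protein family, rose by 0.64, and CAV1, a coat protein of caveolae, fell by 0.52. CYP7B1, an oxysterol hydroxylase, was the only 1 of 5 oxysterol enzymes called, at 0.37. It was dim, at percentile 6.5 of level among all genes, and read 3.30, 3.09 and 3.25 in KD against 2.83, 2.86 and 2.83 in NC.

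Of 11 measured partners and targets of LXR, 3 were higher and 2 lower, with a median of 0.018. The shares over all genes were 17.6% higher and 15.9% lower. Among genes at least as bright as the dimmest member they were 27.6% and 25.2%. ABCG1, which exports cholesterol to lipoproteins, rose by 0.71 (SE 0.10; 6.43, 6.32 and 6.44 in KD against 5.65, 5.54 and 5.88 in NC). APOC1, an apolipoprotein gene and LXR target, fell by 0.94 (SE 0.074), and RXRB, a partner receptor of LXR, fell by 0.54; with the mean of their probe sets these changes were -0.58 and -0.32, both still called. The other rises, named after their values were seen, were ABCA1, the exporter to lipid-poor apolipoprotein, at 0.32, and APOE at 0.64. The APOE value comes from a probe set with an x suffix. Its NC arrays ran from 6.04 to 6.67 and its KD arrays from 6.98 to 7.10. The APOE call held in the 13 alternatives that measured it, with adjusted p up to 0.0316. The ABCA1 call was lost without KD replicate 1 (adjusted p = 0.0910) or NC replicate 1 (0.0550) and with the mean of its probe sets (0.0822). The changes of these lists share the arrays and the fit with those of the members, and the lists were not tested as wholes.

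**Figure D5:**
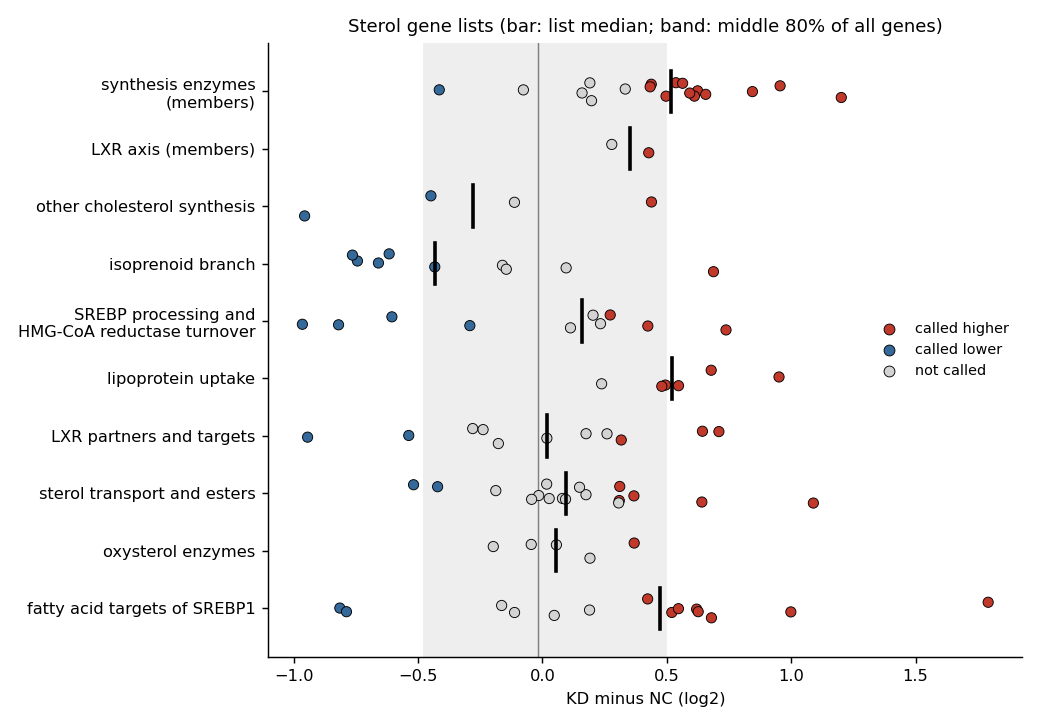
Change (KD minus NC, log2) of each gene in the synthesis enzymes, the LXR axis and the other sterol lists, coloured by call, with a black bar at the list median and a grey band over the middle 80% of all 18244 genes (-0.48 to 0.50). The medians of the synthesis enzymes (0.52) and lipoprotein uptake (0.52) lie at the upper edge of the band, and that of the isoprenoid branch (-0.43) near its lower edge.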

How the data were processed

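The data are 6 Affymetrix arrays, 3 of KD and 3 of NC, made from 6 ug of Trizol-extracted total RNA each, per the labels' protocols. Titles gave the groups. For NC replicates 2 and 3 the source name has a different cell line number, and the characteristics, which say A549, were followed. The authors deposited values for 49395 probe sets, read as log2 because of their range; the summarisation and normalization are not given in the sources used here. Whether fold changes are compressed is therefore unknown. Symbols came from the platform annotation: 45278 probe sets had 1 symbol, 1333 several and 2682 none, and 102 were controls. The test was limma's moderated test (version 3.58.1, R 4.3.3; lmFit, eBayes, group alone in the model, two-sided), with Benjamini-Hochberg adjustment over 18244 genes and a threshold of 0.05; other probe sets of the members were adjusted over all single-symbol probe sets. Dim genes were kept. Motifs were matched as exact letters. The steps were tested on simulated data. The members, lists and alternatives were chosen with earlier results of these data known. All members are named; of each other list, up to 3 called genes with the smallest adjusted p are named. Precision is limited by the number of arrays. As alternatives, arrays were quantile normalized or median centred, the fit used trend and robust options, array weights or a block of replicate numbers, each gene took its probe sets' mean, and a 1.5-fold threshold was set. Further ones left out x or s suffixed probe sets, genes below the 40th percentile of level, or 1 array at a time. The planned pseudocount was not needed, since no values were linear. Figures were drawn with matplotlib 3.10.9.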

Additional observations from a re-analysis of the deposited data

How the results depend on the processing

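Data were refitted or rescaled in 14 alternatives, and the 1.5-fold threshold is given apart. FDPS, TM7SF2 and HSD17B7 had no probe set without an x or s suffix, so 13 alternatives covered them. Of the 28 members 21 kept their direction and side of the threshold in every alternative that measured them. The calls of SREBF1 and NR1H3 were lost in some, calls were gained for PMVK, CYP51A1, EBP and NPC2, and the direction of SOAT1, never called, reversed to 0.082 with the mean of probe sets and spanned -0.12 to 0.020 with an array left out; the causes were not tested. The members that fell numbered 2 (MSMO1 and NPC2) with quantile normalization, trend and robust fitting, array weights or dim genes left out, and 1 to 2 with an array left out. At 1.5-fold, a stricter rule by construction, 10 members rose and 0 fell, 7 enzymes rose and 0 fell, and 1417 genes rose and 1415 fell. With suffixed probe sets left out, the median of the 15 enzymes still measured was 0.61 and the LXR median lay -0.31 from it. The members that rose ranged from 15 to 18 with an array left out. With the replicate block 17 members rose and 1 fell, and 3262 genes rose and 3014 fell; it changed no call of a member. Whether the numbers pair the samples is not settled by the deviations from group means. Those of same-numbered arrays correlated at 0.254, 0.265 and -0.096. KD replicate 1 correlated best with NC replicate 3 (0.286), and KD replicate 2 with NC replicate 2 (0.265). Signal over background was not measured, which limits dim genes such as CYP7B1.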
